A study of Homo sapiens with 6 samples.

Results

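The MYC, MAX and MXD network is a group of 10 genes for transcription factors that pair through a shared basic helix-loop-helix leucine zipper domain. Its members were taken by name from the deposited table as MYC, MAX, MXD1, MXD3, MXD4, MXI1, MNT, MGA, MLX and MLXIP. All 10 were found among the 16197 genes listed there, and all 10 passed a filter that asked for a mean of 1 FPKM or more. FPKM is a fragment number scaled to transcript length and library total. RNA was sequenced from Panc1 cells, an established human pancreatic carcinoma line, in 3 libraries of cells given BRQ and 3 libraries of cells given the solvent DMSO. BRQ is read here as brequinar, since the title of the series speaks of inhibiting DHODH, an enzyme of pyrimidine synthesis. The sources used here give neither the dose nor how long the cells were exposed. Nor do the labels tell whether libraries of a group are separate cultures, and p-values therefore cover no more than the variation between libraries, possibly a technical one.

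MAX is the hub of the network. MYC binds DNA only as a pair with MAX, at the E-box CACGTG, and the pair recruits acetyltransferases and elongation factors that raise transcription. The MXD proteins, MXI1 (also called MXD2), MNT and MGA pair with the same MAX and occupy the same sites, where they bring in repressor complexes, so the balance of MAX partners is a common way to read the network. MLX pairs with MLXIP, known as MondoA, in a parallel arm that responds to glucose phosphate. In pancreatic carcinoma MYC drives growth and nucleotide synthesis.

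The E-box was searched for in RefSeq promoter windows (GRCh38.p14, from 250 bases before to 50 after a gene's start), because it is the site these proteins share. CACGTG reads the same on both strands. It was present in 7.26% of the 35116 windows of the reference and in at least 1 window of 12.9% of the 8685 tested genes that had one. Of the 9 members with a window, 3 held it, namely MXD4, MNT and MLX, and 6 did not. A match describes the letters and not a bound site. The stretches before the start are shown 5′ to 3′ on the gene's strand with the E-box in capitals. They lie at chr4:2262315-2262359 (minus strand, E-box 238 to 233 bases before the start), chr17:2401221-2401280 (minus strand, 193 to 188 bases before) and chr17:42567023-42567082 (plus strand, 50 to 45 bases before).
MXD4: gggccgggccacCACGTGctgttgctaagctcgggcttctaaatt
MNT: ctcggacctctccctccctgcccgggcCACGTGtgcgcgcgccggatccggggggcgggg
MLX: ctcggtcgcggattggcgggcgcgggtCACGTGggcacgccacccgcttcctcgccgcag
The 3 genes did not move together. As given below, MXD4 was higher in BRQ, MNT was lower and MLX did not pass the test.

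The epithelial keratins KRT8, KRT18 and KRT19 stood between 558 and 877 FPKM in BRQ libraries and between 690 and 860 FPKM in DMSO libraries. Among the other epithelial genes, KRT7 and CDH1 were low, while EPCAM and MUC1 were not. MUC1 averaged 62.7 FPKM in BRQ and 35.2 FPKM in DMSO. The keratin KRT7 averaged 1.31 FPKM in BRQ and 1.24 FPKM in DMSO, and CDH1 averaged 5.12 FPKM in BRQ and 4.95 FPKM in DMSO. The list for this line holds 7 epithelial genes and VIM, a mesenchymal gene. All 8 reached a mean of 1 FPKM, and they summed to 3144.2 to 3313.7 FPKM in BRQ and 4249.9 to 4417.0 FPKM in DMSO. Most of that gap was VIM, which averaged 880 FPKM in BRQ and 1870.1 FPKM in DMSO, while EPCAM averaged 104 FPKM in BRQ and 85.4 FPKM in DMSO. CDKN2A, which this line is generally described as lacking, was present at 32.5 ± 2.13 FPKM in BRQ and 46.3 ± 2.73 FPKM in DMSO (SD, n = 3 each). The name Panc1 is taken from the sample titles, and whether the cells are that line was not tested. Defining markers of leukocytes (PTPRC, at most 0.153 FPKM) and endothelium (PECAM1, at most 0.117 FPKM) were near 0, and the 3 endothelial genes found summed to 0.0843 to 0.0884 FPKM in BRQ and 0.155 to 0.26 FPKM in DMSO. Among 8 leukocyte genes, 2 reached that mean, and the list summed to 157 to 166 FPKM in BRQ and 107 to 114 FPKM in DMSO, nearly all of it CD68. Of the 7 fibroblast genes 1 reached it, LUM, and the list summed to 77.7 to 84 FPKM in BRQ and 52.1 to 55.8 FPKM in DMSO. Among 8 erythroid genes found in the table, 3 reached it, all haemoglobins, and the list summed to 1.85 to 88.8 FPKM in BRQ and 0.592 to 2.11 FPKM in DMSO. HBB set BRQ libraries 1 and 2 apart, at 64.2 and 32.8 FPKM, against 0.739 FPKM in BRQ library 3 and at most 0.677 FPKM in DMSO, and the part of these differences in the results was tested only by leaving those 2 libraries out. Depth is not stated in the table. Judged by the step between low values, relative depth was 1.02 to 1.03 in BRQ and 0.959 to 0.986 in DMSO, and the rough depth was 3.12e+07 fragments, or about 340 fragments on the lowest member, MXD3 in DMSO.

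The comparison asks how the RNA of the network differed after DHODH inhibition. MYC fell and 3 of its 4 MXD competitors rose, with MXD3 changing most, while MAX itself did not pass the test. Of the 10 members, 3 were higher in BRQ (MXD1, MXD3 and MXD4), 3 were lower (MYC, MNT and MGA) and 4 did not pass (MAX, MXI1, MLX and MLXIP). The test was limma on log2(FPKM + 1) across the 10689 tested genes, with a Benjamini-Hochberg adjusted p of 0.05 as threshold. Across all tested genes 62.1% passed, 36.9% as higher and 25.2% as lower, so 6 of 10 members is close to the background share. Values of BRQ and DMSO did not overlap in 7 of the 10 members, and in 67.2% of all tested genes. Fold changes below are BRQ minus DMSO, given as log2(FPKM + 1) with an SE, a scale that shrinks the changes of low genes. Fewer cells of a type and less RNA per cell cannot be told apart in such bulk libraries.

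**Figure D1:**
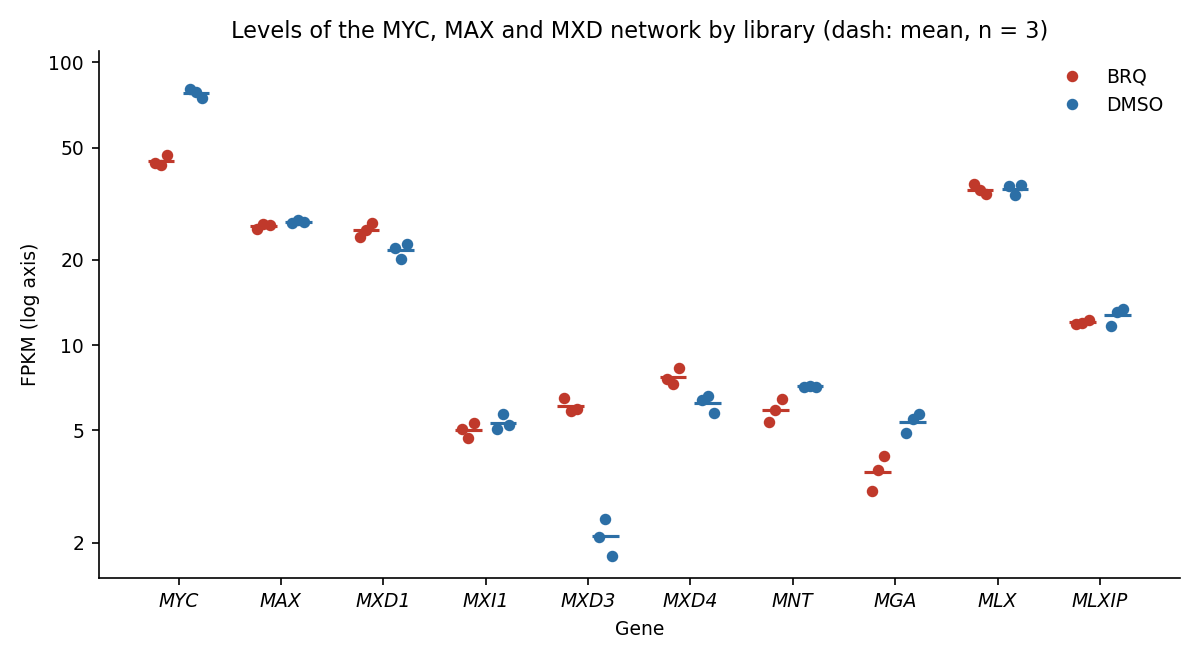
FPKM of each network member on a log axis, with 1 point per library and a dash at the mean of 3 libraries, BRQ left of DMSO. MYC lies lower and MXD3 higher in all 3 BRQ libraries than in any DMSO library, while the points of MLX, MLXIP and MXI1 overlap between the groups.

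MYC, the activating partner of MAX, lies on chromosome 8 from 127735434 to 127741434 (GRCh38, plus strand). It stood at 44.2, 43.5 and 46.9 FPKM in BRQ libraries 1, 2 and 3, against 80.3, 78.7 and 74.8 FPKM in DMSO libraries 1, 2 and 3. All BRQ libraries were low, the groups did not overlap, and the gap was many times the spread within a group. The log2 fold change was -0.78 ± 0.05 (limma adjusted p = 3.19e-07), a BRQ mean 0.576 times the DMSO mean. By size MYC ranked 166th of the 2692 genes that were lower. Of the other MYC genes, MYCN averaged 0.410 ± 0.0858 FPKM in BRQ and 0.459 ± 0.149 FPKM in DMSO, and MYCL averaged 0.144 ± 0.0564 FPKM in BRQ and 0.203 ± 0.0405 FPKM in DMSO (SD, n = 3 each). Both were below the filter and were not tested.

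MAX, the partner that MYC, the MXD proteins, MNT and MGA share, lies on chromosome 14 from 65006174 to 65102695 (minus strand). Its values were 25.7, 26.8 and 26.5 FPKM in BRQ and 27, 27.7 and 27.3 FPKM in DMSO. The BRQ values lay just below the DMSO values without overlap. The log2 fold change of -0.05 ± 0.04 did not pass (limma adjusted p = 0.314), and its 95% interval ran from -0.15 to 0.04. It passed as lower when libraries were rescaled by median-of-ratios or trimmed-mean factors, at -0.12 (limma adjusted p = 0.0417 and 0.0379), and over the alternatives its adjusted p spanned 0.0379 to 0.569.

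MXD3 is an MXD repressor linked to cells in S phase, on chromosome 5 from 177301461 to 177312757 (minus strand). It stood at 6.48, 5.83 and 5.92 FPKM in BRQ and at 2.1, 2.43 and 1.79 FPKM in DMSO. Every BRQ library was more than any DMSO library, with a BRQ mean 2.88 times the DMSO mean. The log2 fold change was 1.19 ± 0.09 (limma adjusted p = 1.23e-06), which ranked 81st of the 3946 genes that were higher. MXD3 shares exon bases with 2 neighbours in GENCODE 29, 18% of its own with RAB24 on the same strand and 22.5% with PRELID1 on the other strand, and how the authors counted shared or antisense reads was not given in the sources used here. RAB24 averaged 51.2 ± 2.48 FPKM in BRQ and 44.3 ± 0.748 FPKM in DMSO, and PRELID1 averaged 217 ± 10.8 FPKM in BRQ and 189 ± 10.5 FPKM in DMSO (SD, n = 3 each). Both neighbours also rose, by 0.20 and 0.19 on the log2 scale, and in FPKM each rose by more than MXD3 did. Their part in the MXD3 values was not tested.

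MXD1, a repressor known from cells that leave the cycle and differentiate, lies on chromosome 2 from 69897688 to 69942945 (plus strand). It was at 24.1, 25.5 and 27 FPKM in BRQ and 22.1, 20.2 and 22.8 FPKM in DMSO. The groups lay close together but did not overlap. MXD1 rose by 0.22 ± 0.06 on the log2 scale (limma adjusted p = 0.00763). MXD1 shares 3.73% of its annotated exon bases with SNRNP27, which averaged 37.5 ± 6.74 FPKM in BRQ and 27 ± 1.14 FPKM in DMSO (SD, n = 3 each), and whose part in the MXD1 values was not tested.

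MXD4, a repressor of the same group found in resting and differentiated cells, lies on chromosome 4 from 2247432 to 2262294 (minus strand) and carries the E-box shown above. Its values were 7.6, 7.25 and 8.26 FPKM in BRQ and 6.37, 6.6 and 5.75 FPKM in DMSO. The BRQ values were the higher ones in all 3 libraries. MXD4 rose by 0.27 ± 0.07 on the log2 scale (limma adjusted p = 0.0082). The call was lost when each library's trend with the genomic span of genes was removed (log2 fold change 0.17, limma adjusted p = 0.0664), and over the alternatives its adjusted p spanned 0.00741 to 0.0664.

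MXI1, the remaining MXD repressor, lies on chromosome 10 from 110207605 to 110287365 (plus strand). It was at 5.06, 4.69 and 5.31 FPKM in BRQ and 5.03, 5.68 and 5.23 FPKM in DMSO. The groups overlapped, and the log2 fold change of -0.07 ± 0.07 did not pass (limma adjusted p = 0.432, 95% interval -0.23 to 0.09). Whether the MXD genes differed from each other in their change was not tested.

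MNT and MGA repress with MAX but fall outside the MXD group, and both were lower in BRQ. MNT, an antagonist of MYC that is made throughout the cell cycle, lies on chromosome 17 from 2384060 to 2401118 (minus strand) and was at 5.33, 5.88 and 6.42 FPKM in BRQ and 7.11, 7.18 and 7.12 FPKM in DMSO. The groups did not overlap, and the BRQ libraries were spread more widely (SD 0.549) than the DMSO libraries (SD 0.0382). The log2 fold change was -0.25 ± 0.07 (limma adjusted p = 0.012). The lowest MNT value was that of BRQ library 1, which held the most haemoglobin RNA, and the highest BRQ value was that of library 3, which held the least. MGA, MXD1 and MLXIP had the same order of BRQ libraries, though MXD1 was higher in BRQ and MLXIP did not pass. With BRQ libraries 1 and 2 left out, the log2 fold change of MNT was -0.13 and did not pass (limma adjusted p = 0.241, spanning 0.00221 to 0.241 over the alternatives). MNT shares 12.2% of its exon bases with the antisense gene AC006435.1, not analysed here.

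MGA, a large protein with a second DNA-binding domain of the T-box kind that serves as scaffold of the Polycomb complex PRC1.6, lies on chromosome 15 from 41621224 to 41773081 (plus strand). Its values were 3.04, 3.6 and 4.06 FPKM in BRQ and 4.87, 5.47 and 5.72 FPKM in DMSO. The groups did not overlap, and BRQ library 1 was again the lowest. MGA fell by 0.48 ± 0.09 on the log2 scale (limma adjusted p = 0.00109). MGA has the longest genomic span of the members, 151858 bases. With the trend with genomic span removed its log2 fold change was -0.25 and still passed (limma adjusted p = 0.0196), and with BRQ libraries 1 and 2 left out it was -0.33 (limma adjusted p = 0.0345).

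As a pair, MLX and MLXIP form the arm of the network that works without MAX. MLX lies on chromosome 17 from 42567068 to 42573239 (plus strand) and was at 37, 35.3 and 34.2 FPKM in BRQ and 36.4, 33.9 and 36.7 FPKM in DMSO. MLXIP, the glucose-sensing partner, lies on chromosome 12 from 122078722 to 122147347 (plus strand) and was at 11.9, 12 and 12.3 FPKM in BRQ and 11.7, 13.1 and 13.4 FPKM in DMSO. Both genes overlapped between the groups. The log2 fold changes of -0.01 ± 0.05 for MLX (95% interval -0.12 to 0.10) and -0.07 ± 0.06 for MLXIP (95% interval -0.20 to 0.07) did not pass (limma adjusted p = 0.915 and 0.349). MLX shares 18.1% of its exon bases with PSMC3IP on the other strand, which averaged 22 ± 0.0975 FPKM in BRQ and 8.87 ± 1.33 FPKM in DMSO (SD, n = 3 each). The part of PSMC3IP in the MLX values was not tested. MLXIPL, the ChREBP protein that can replace MLXIP, averaged 0.344 ± 0.0781 FPKM in BRQ and 0.306 ± 0.126 FPKM in DMSO and was not tested.

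**Figure D2:**
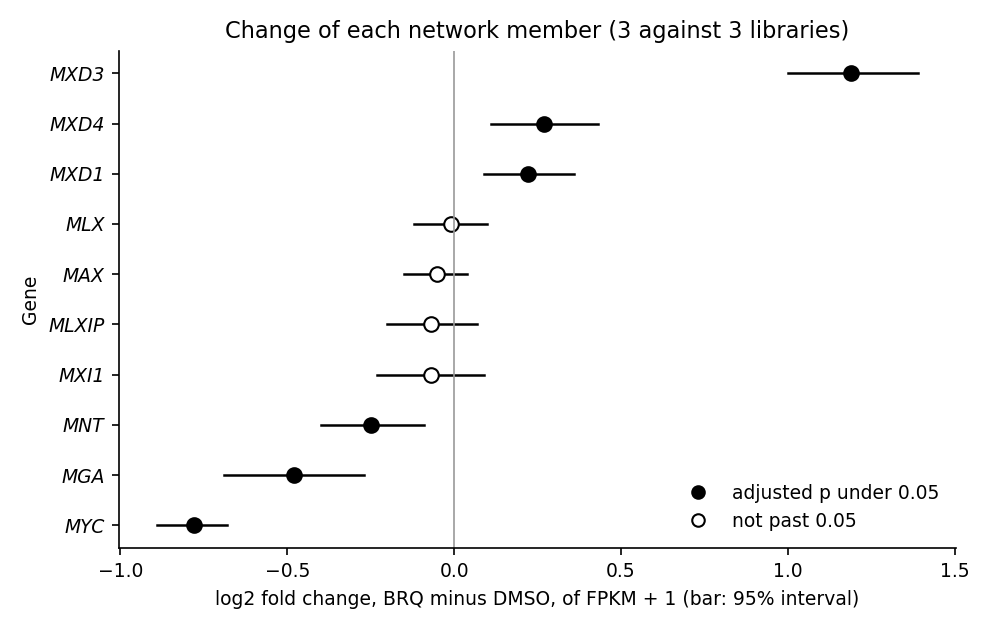
Log2 fold change of each member, BRQ minus DMSO, on log2(FPKM + 1), with its 95% interval from limma, where filled points passed an adjusted p of 0.05. MXD3 stands alone at 1.19, MYC lies at the other end at -0.78, and the intervals of MAX, MXI1, MLX and MLXIP include 0.

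Levels kept their order at the top and differed in the lower part. In BRQ the order of means was MYC, MLX, MAX, MXD1, MLXIP, MXD4, MXD3, MNT, MXI1 and MGA. In DMSO it was MYC, MLX, MAX, MXD1, MLXIP, MNT, MXD4, MGA, MXI1 and MXD3. MYC and MLX led in both groups, MXD3 was lowest of all in DMSO, and in BRQ its values lay above those of MXI1 and MGA. Neighbours whose library values overlapped were MAX and MXD1 and likewise MXD3 and MNT in BRQ, and MGA and MXI1 in DMSO, and no order is read between these.

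Read within each library, where a common scaling factor has no effect, the RNA for MAX partners was made up differently. MYC held 46.1%, 45.2% and 45.2% of the summed FPKM of the 7 MAX partners in BRQ libraries 1, 2 and 3, against 62.8%, 62.3% and 60.7% in DMSO libraries 1, 2 and 3. The groups did not overlap, and the difference of 16.4 percentage points exceeded both SDs (0.528 in BRQ and 1.09 in DMSO). The 4 MXD genes together held 45.1%, 44.9% and 44.7% in BRQ and 27.9%, 27.6% and 28.9% in DMSO. Their sum was thus about level with MYC in BRQ, at a ratio of MYC to MXD RNA of 1.01 ± 0.00796, against 2.2 ± 0.0875 in DMSO (SD, n = 3 each). MNT and MGA together held 9.56 ± 0.721% in BRQ and 9.93 ± 0.532% in DMSO, with overlapping values. These shares add levels per length of transcript and say nothing of protein, nor of which proteins were paired with MAX. With 3 libraries against 3 an exact two-sided permutation test cannot go below p = 0.1, so none is given.

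Within the MXD group MXD1 was the largest part in both conditions, at 57.6 ± 1.66% in BRQ and 61.4 ± 3.19% in DMSO, and its values overlapped. MXD3 held 13.7 ± 1.14% of the MXD sum in BRQ and 5.96 ± 0.967% in DMSO (SD, n = 3 each), without overlap. The ratio of MYC to MAX was 1.72, 1.63 and 1.77 in BRQ and 2.97, 2.84 and 2.74 in DMSO. MAX itself amounted to 0.267 ± 0.0118 of the summed partner level in BRQ and 0.217 ± 0.00528 in DMSO, since the partner sum was 98.6 ± 4.53 FPKM in BRQ and 126 ± 2.36 FPKM in DMSO (SD, n = 3 each). MYC was lower by more than that sum was, because the MXD sum was higher in BRQ (44.3 ± 1.84 FPKM, against 35.4 ± 0.406 FPKM in DMSO).

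**Figure D3:**
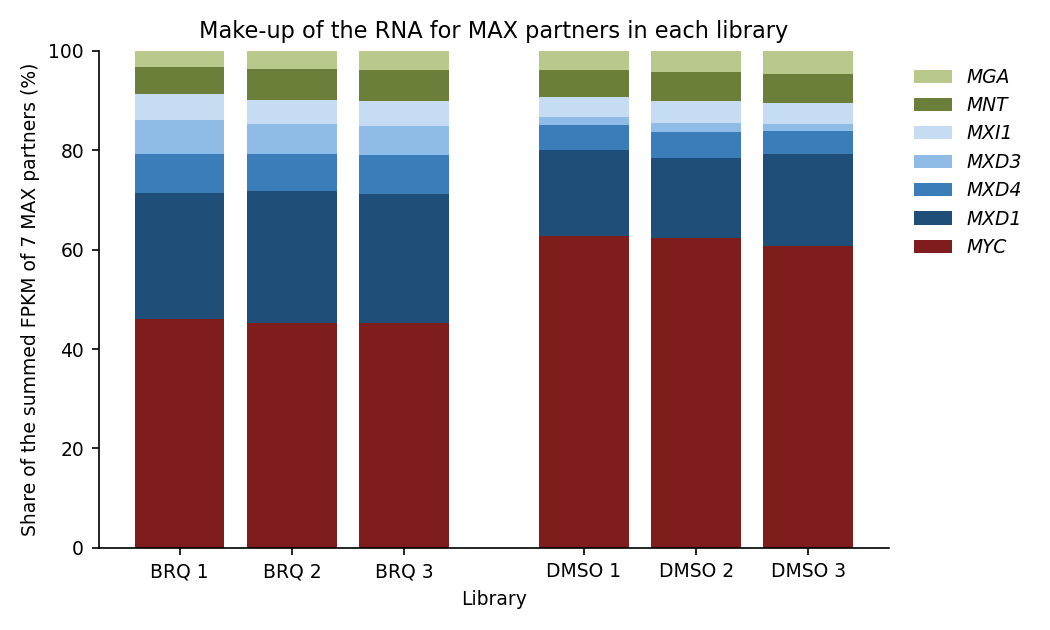
Stacked share of the summed FPKM of 7 MAX partners in each library, BRQ libraries left of DMSO libraries. MYC takes 45.2% to 46.1% in BRQ and 60.7% to 62.8% in DMSO, and the MXD3 band is wider in every BRQ library.

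Likeness to MYC and to MXD3, the member with the largest change, was measured over the 6 libraries as the root mean square difference of log2(FPKM + 1) after centring each gene on its mean, among 7672 genes averaging 5 FPKM or more. Nearest to MYC were RAD50, a subunit of the double-strand break sensor MRN (0.032), the splicing factor PRPF38B (0.032), the seryl-tRNA synthetase SARS1 (0.035), the Polycomb-related gene SCMH1 (0.036) and the nuclear import receptor KPNB1 (0.041). RAD50 averaged 11.7 FPKM in BRQ and 20.8 FPKM in DMSO, and KPNB1 averaged 34.8 FPKM in BRQ and 59 FPKM in DMSO. Nearest to MXD3 were SHMT1, the cytosolic enzyme that feeds thymidylate synthesis (0.032), the polymerase clamp PCNA (0.042), the mitochondrial ADP/ATP carrier SLC25A4 (0.058), NARF (0.063) and the recombination factor PSMC3IP (0.064). SHMT1 averaged 12 FPKM in BRQ and 4.83 FPKM in DMSO, and PCNA averaged 191 FPKM in BRQ and 84 FPKM in DMSO. These 6 libraries hold a single contrast, so likeness here mostly means a change of like size on the log2(FPKM + 1) scale. That scale shrinks the change of MXD3, a low gene. Its BRQ mean was 2.88 times its DMSO mean, against 2.27 to 2.72 times for the genes nearest to it.

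Genes that work with the network or are known to respond to it were counted in lists chosen by role, with all tested genes as background (36.9% higher, 25.2% lower, median log2 fold change 0.06). The SIN3-HDAC complex, which MXD proteins and MNT bring to DNA, had 6 of 15 genes higher, 2 lower and a median of 0.08. The number lower was 1 without DMSO library 2 or 3, with a filter at 5 FPKM and with the genomic span trend removed. It was 4 under median-of-ratios, TPM or trimmed-mean scaling. SAP30, a SIN3 subunit, had the smallest adjusted p of the list, at 17.5 ± 1.08 FPKM in BRQ against 9.34 ± 0.733 FPKM in DMSO (limma adjusted p = 2.39e-06). The subunits BRMS1 (54.2 ± 3.37 FPKM in BRQ and 35.4 ± 1.12 FPKM in DMSO) and SAP18 (42.8 ± 3.1 FPKM in BRQ and 30.8 ± 1.49 FPKM in DMSO) also rose, while the deacetylase HDAC1 fell (32.1 ± 1.47 FPKM in BRQ and 38.5 ± 0.842 FPKM in DMSO). Of 10 PRC1.6 partners of MGA, 2 were higher and 4 lower (median -0.10). The number lower was 2 without BRQ library 2 or DMSO library 1, and the number higher was 1 without any library other than BRQ library 3, and under the same 3 scalings. The ubiquitin ligase RNF2 fell to 5.8 ± 0.295 FPKM in BRQ, against 7.81 ± 0.466 FPKM in DMSO, and its binding proteins RYBP and YAF2 were lower by 0.20 and 0.27 on the log2 scale. TFDP1, the partner of E2F proteins, rose (48.9 ± 1.64 FPKM in BRQ and 36.3 ± 1 FPKM in DMSO). The calls of RYBP and YAF2 were lost with the genomic span trend removed (limma adjusted p = 0.0741 and 0.136) and with BRQ libraries 1 and 2 left out (limma adjusted p = 0.0693 and 0.237). That of YAF2 was also lost without BRQ library 2 (limma adjusted p = 0.107) and without DMSO library 1 (limma adjusted p = 0.103). Their adjusted p spanned 0.00265 to 0.0741 for RYBP and 0.0147 to 0.237 for YAF2.

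Of 16 MYC coactivators, 5 were higher and 5 lower, with a median of -0.08. Under the same 3 scalings 4 were higher and 7 lower, and with the span trend removed or BRQ libraries 1 and 2 left out 4 were higher and 3 lower. The ATPase RUVBL1 (17.8 ± 1.09 FPKM in BRQ and 25.7 ± 0.472 FPKM in DMSO) and the acetyltransferase KAT5 (19.8 ± 0.507 FPKM in BRQ and 25.1 ± 1.35 FPKM in DMSO) fell. The elongation kinase CDK9 (35.4 ± 0.741 FPKM in BRQ and 27.3 ± 1.14 FPKM in DMSO) and the actin-like subunit ACTL6A (30.4 ± 0.985 FPKM in BRQ and 25 ± 0.662 FPKM in DMSO) rose. Genes known to act on the MYC gene or its RNA were mostly lower, 13 of 19 against 4 higher, with a median of -0.22. Of these, IGF2BP2, which protects MYC RNA from decay, fell to 9.01 ± 0.188 FPKM in BRQ, against 15 ± 0.274 FPKM in DMSO (limma adjusted p = 1.81e-06). Its log2 fold change was -0.68, and -0.41 with the span trend removed. HNRNPD and ZFP36, which bind AU-rich elements and hasten decay, fell as well. HNRNPD averaged 53.4 ± 1.93 FPKM in BRQ and 79.5 ± 2.44 FPKM in DMSO, and ZFP36 averaged 55.9 ± 2.19 FPKM in BRQ and 83 ± 6.28 FPKM in DMSO. HNRNPK, which binds the MYC promoter, fell to 200 ± 2.43 FPKM in BRQ, against 266 ± 2.15 FPKM in DMSO. Among the genes named here, the RNA of those with opposite roles in MYC RNA decay was thus lower together, while the 4 higher genes of the list are not named.

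Among 17 genes that control the stability of MYC protein, 7 were higher and 4 lower (median 0.03). The number higher was 4 without DMSO library 1. Under median-of-ratios, TPM or trimmed-mean scaling 4 were higher and 5 lower, so neither direction led at all settings, and the number lower was 2 with the span trend removed or BRQ libraries 1 and 2 left out. SKP2, a ubiquitin ligase subunit that both degrades and coactivates MYC, rose to 11.6 ± 0.324 FPKM in BRQ, against 7 ± 0.343 FPKM in DMSO (limma adjusted p = 5.69e-06). GSK3B, a kinase that marks MYC for FBXW7, fell to 8.98 ± 0.386 FPKM in BRQ, against 12.5 ± 0.412 FPKM in DMSO, and its paralog GSK3A rose (38.8 ± 2.17 FPKM in BRQ and 30.6 ± 1.11 FPKM in DMSO). The call of GSK3B was lost with the genomic span trend removed (log2 fold change -0.08, limma adjusted p = 0.261, spanning 3.34e-05 to 0.261 over the alternatives).

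Of 39 tested genes that MYC is known to activate, 19 were lower, 12 were higher and 8 did not pass, and the median log2 fold change was -0.14, against 0.06 for all genes. The nucleolar chaperone NPM1 fell to 284 ± 17.6 FPKM in BRQ, against 471 ± 9.08 FPKM in DMSO (limma adjusted p = 4.91e-07), although NPM1 has many processed copies in the genome that could take some of its reads. DKC1, the pseudouridine synthase of the nucleolus and telomerase, fell to 36.6 ± 1.11 FPKM in BRQ, against 50.6 ± 2.15 FPKM in DMSO. The largest changes of the list went the other way. The cell cycle phosphatase CDC25A rose to 19.1 ± 0.301 FPKM in BRQ, against 9.19 ± 0.148 FPKM in DMSO (limma adjusted p = 1.47e-07). ODC1, the first enzyme of polyamine synthesis and a classic MYC target, rose to 125 ± 7.02 FPKM in BRQ, against 71.3 ± 3.1 FPKM in DMSO (limma adjusted p = 4.73e-07). The list did not move as a block, and counts at other settings ran from 16 to 21 lower and from 10 to 13 higher.

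Of 11 tested genes that MYC is known to repress, 7 were higher and 2 lower, with a median of 0.23. The differentiation factor CEBPA rose to 8.82 ± 0.732 FPKM in BRQ, against 3.85 ± 0.641 FPKM in DMSO (limma adjusted p = 6.66e-06). Cyclin D1, CCND1, averaged 251 ± 9.64 FPKM in BRQ and 186 ± 2.99 FPKM in DMSO, and the CDK inhibitor CDKN2B averaged 19.7 ± 0.694 FPKM in BRQ and 15 ± 0.575 FPKM in DMSO, both higher in BRQ. Of the 2 that were lower, THBS1, an inhibitor of angiogenesis, fell to 6.94 ± 0.616 FPKM in BRQ, against 13.3 ± 1.2 FPKM in DMSO (limma adjusted p = 6.22e-06).

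**Figure D4:**
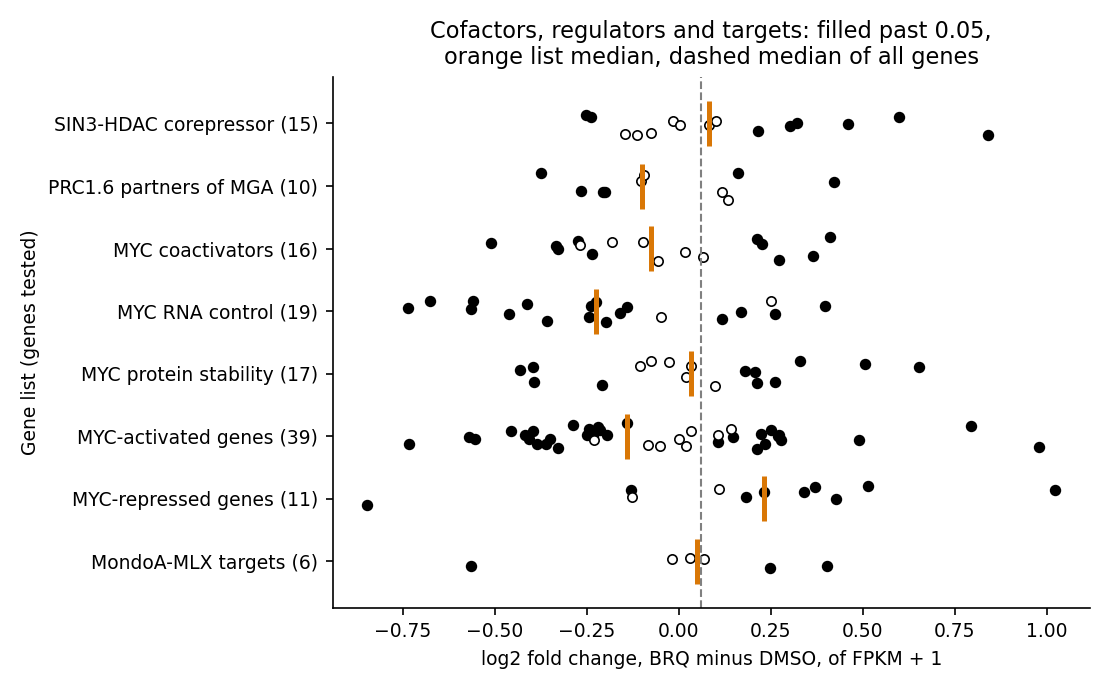
Log2 fold change, BRQ minus DMSO, of every tested gene of the 8 lists, with filled points past an adjusted p of 0.05, an orange bar at the list median and a dashed line at 0.06, the median of all genes. The medians of genes acting on MYC RNA (-0.22) and of MYC-activated genes (-0.14) lie left of the dashed line and that of MYC-repressed genes (0.23) lies right of it, and each of these lists holds genes changed in both directions.

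The 6 genes listed as targets of MLXIP with MLX gave no common direction, with 2 higher, 1 lower and a median of 0.05. The number higher was 4 without BRQ library 1 and 1 without DMSO library 2 or 3. TXNIP and ARRDC4 are alpha-arrestins that limit glucose uptake and are the most direct readouts of this arm. TXNIP was at 210, 205 and 213 FPKM in BRQ and 314, 306 and 311 FPKM in DMSO, low in every BRQ library. TXNIP fell by 0.57 ± 0.04 on the log2 scale (limma adjusted p = 4.75e-07). ARRDC4 was at 6.95, 6.77 and 7.05 FPKM in BRQ and 6.4, 5.42 and 5.27 FPKM in DMSO, higher without overlap. Its log2 fold change was 0.25 ± 0.08 (limma adjusted p = 0.015), and the call was lost without DMSO library 2 or 3, with BRQ libraries 1 and 2 left out and with the span trend removed (limma adjusted p = 0.0561, 0.0617, 0.0775 and 0.11, spanning 0.00397 to 0.11 over the alternatives). Both arrestins thus passed with opposite signs.

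The promoter windows of these arrestins are shown because both hold E-box letters of the kind this arm binds. A pair of E-box-like CACGNG letters 5 bases apart, searched on both strands, was in 0.057% of all windows and in that of TXNIP. A perfect CACGTG was in that of ARRDC4. Of the 5 listed targets with a window, 3 held CACGTG, the others being HK2 and PFKFB3, whose windows are not shown here. The stretches lie at chr1:145996624-145996694 (GRCh38.p14, minus strand, pair 88 to 72 bases before the start) and chr15:97960466-97960525 (plus strand, E-box 210 to 205 bases before), with the motif in capitals.
TXNIP: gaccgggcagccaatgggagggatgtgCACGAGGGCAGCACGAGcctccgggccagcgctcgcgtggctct
ARRDC4: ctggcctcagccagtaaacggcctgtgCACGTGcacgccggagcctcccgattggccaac
KLF10, a zinc finger repressor and early target of this arm, rose to 62.3 ± 1.57 FPKM in BRQ, against 46.9 ± 2.35 FPKM in DMSO (limma adjusted p = 3.16e-05). ARRDC2 averaged 13.9 ± 0.374 FPKM in BRQ and 14.1 ± 0.904 FPKM in DMSO. The hexokinase HK2 averaged 28.7 ± 2.94 FPKM in BRQ and 28 ± 0.323 FPKM in DMSO, and the glycolytic regulator PFKFB3 averaged 23.8 ± 1.55 FPKM in BRQ and 22.6 ± 0.139 FPKM in DMSO. None of these last 3 genes passed (lowest limma adjusted p = 0.288), although PFKFB3 passed without BRQ library 1 and with the span trend removed (limma adjusted p = 0.0397 and 0.00195, spanning 0.00195 to 0.953 over the alternatives) and HK2 passed without BRQ library 1 (limma adjusted p = 0.0463, range 0.0463 to 0.98).

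Across the genome, genes with and without the E-box in a promoter window had similar shares of calls, and the difference was not tested. Of 1120 tested genes with CACGTG, 34.5% were higher and 26.8% lower in BRQ, with a median log2 fold change of 0.03. Of 7565 tested genes without it, 37.1% were higher and 24.7% lower, with a median of 0.06. The letters were common among the MYC-activated genes, in 20 of the 33 that had a window (60.6%), ODC1 among them.

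The deposited table tags 4 of the 10 members (MYC, MAX, MNT and MXI1) as bHLH factors and places MLX and MLXIP together in its pathways of insulin resistance and fatty liver disease. It gives MYC and MAX a shared pathway of MAPK signalling, and no pathway for the MXD genes, MXI1, MNT or MGA.

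**Figure D5:**
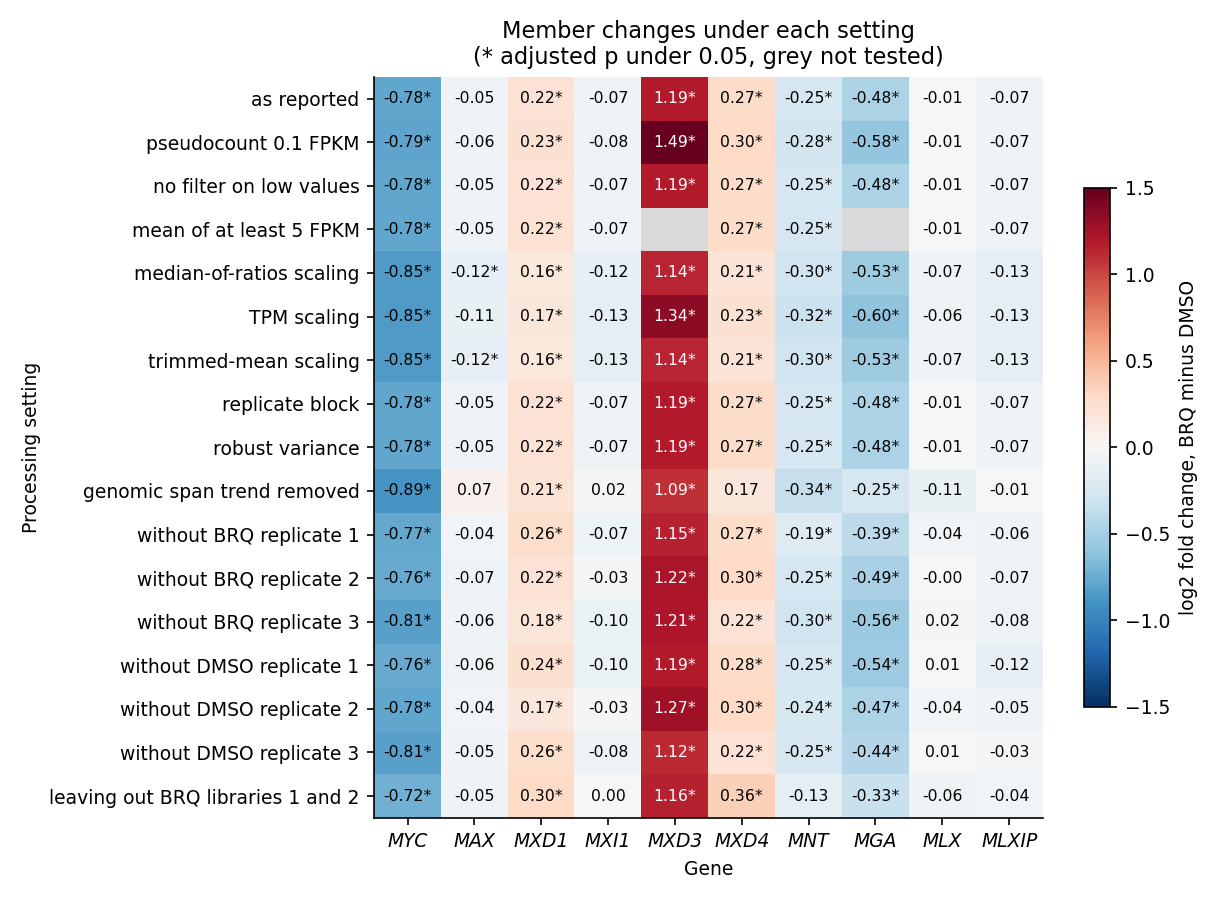
Log2 fold change of each member, BRQ minus DMSO, under each processing setting, with a star where the adjusted p was under 0.05 and grey where the gene fell below the filter. MYC keeps between -0.89 and -0.72 and MXD3 between 1.09 and 1.49 where tested, while MAX, MXD4 and MNT each gain or lose a star under a setting named in the text.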

How the data were processed

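Gene levels were measured by RNA-seq in 6 libraries of Panc1 cells, grouped by the sample titles. The authors deposited 1 table of FPKM values per gene and library. The submitters' processing notes name fastp, HTSeq and the build hg38. The sources used here do not name the aligner, annotation, gene lengths, strand or RNA selection. The members, lists and tests were chosen with earlier results of these data known. Genes averaging 1 FPKM or more over the 6 libraries entered a limma fit (version 3.58.1, R 4.3.3) of log2(FPKM + 1) on treatment alone. Variances were moderated with a trend on the mean level, tests were two-sided, and p-values were adjusted by Benjamini-Hochberg over all tested genes. Count models were not used, since FPKM values are normalized. Relative depth came from the steps between values under 0.3 FPKM, where 81.4% of 1459 genes held whole multiples of a step within 0.02 of a fragment, with the gene lengths of GENCODE 29 for the rough depth. Positions and shared exons are from GENCODE 29 (GRCh38), and promoter windows from RefSeq (GRCh38.p14). All 10 members are named, with up to 4 genes of smallest adjusted p past the threshold from each list and every gene of lists of 6 or fewer; 1 gene so chosen is not reported here. The 5 genes nearest to MYC and to MXD3 are also named. CDKN2A, the marker genes, the neighbours sharing exons and the other basic helix-loop-helix genes lie outside that rule and were picked with their values known. The fit was repeated with a pseudocount of 0.1 FPKM, without a filter, with a filter at 5 FPKM, scaled by TPM, by median-of-ratios or by trimmed-mean factors, with a replicate block and with robust variance. Further alternatives were removal of each library's trend with genomic span, leaving out each library in turn, and leaving out BRQ libraries 1 and 2 together. Figures were drawn with matplotlib 3.10.9.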

Additional observations from a re-analysis of the deposited data

How the results depend on the processing

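Of 158 values of the 10 members under the alternatives, 154 kept their direction where called and their side of the threshold. The exceptions are those named above for MAX, MXD4 and MNT. Of 543 values of the other genes that the naming rule chose, 11 lost their call and 3 gained one. Members past the threshold numbered 6 as reported, 6 without each library in turn, and 4 to 7 over all alternatives. MXD3 and MGA fell below the filter at a mean of 5 FPKM, which leaves 4. All tested genes gave 6638 calls, 6037 to 6404 without each library in turn, and 5152 to 6799 over all alternatives. The split of calls was 3946 higher and 2692 lower as reported, 3382 higher and 3160 lower after TPM scaling, 3335 higher and 3296 lower after median-of-ratios, and 3321 higher and 3309 lower after trimmed-mean. MYC, MXD1, MXD3, MXD4, MNT and MGA kept their direction and call under these scalings. The change in the MYC share of MAX partners was -16.4 percentage points, -17 to -16 without each library in turn, and -17.5 when MGA was not counted as a partner. With the replicate number as a block, 6799 genes passed and no member changed its call. Deviations of same-numbered libraries 1, 2 and 3 correlated at 0.144, 0.00804 and 0.0584 across genes. BRQ libraries 1 and 3 correlated best with the DMSO library of the same number, and BRQ library 2 with DMSO library 3 (0.105). With 3 libraries per group these values cannot settle whether the numbers pair the libraries. With BRQ libraries 1 and 2 left out, the 1 remaining BRQ library is assumed to vary like the DMSO libraries. List counts moved by over 1.5 times in 33 of 288 values, none of them in the MYC-activated list. Depth limits the lowest genes, MYCN, MYCL and MLXIPL, which were not tested.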

Other observations

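Other factors of the basic helix-loop-helix kind, as the deposited table tags them, were looked at after their values were seen. Among all tested genes 25.2% were lower in BRQ and 36.9% higher, with a median log2 fold change of 0.06. Of 17 tested genes of this kind that are not members of the network, 9 were lower in BRQ, 4 were higher and 4 did not pass. Their median was -0.18. Over the alternatives 6 to 10 were lower and 3 to 5 higher. Several of them bind the same E-box letters. USF1 rose to 48 ± 3.17 FPKM in BRQ, against 31.8 ± 1.57 FPKM in DMSO (limma adjusted p = 8.77e-06), while its partner USF2 fell to 13.9 ± 0.705 FPKM in BRQ, against 16.2 ± 1.01 FPKM in DMSO (limma adjusted p = 0.0133). TFE3, a lysosomal and nutrient-responsive factor, averaged 27.8 ± 0.763 FPKM in BRQ and 30.3 ± 0.185 FPKM in DMSO and was lower (limma adjusted p = 0.0337). TFAP4, a known target of MYC, fell to 5.93 ± 0.822 FPKM in BRQ, against 10.6 ± 0.34 FPKM in DMSO (limma adjusted p = 2.24e-05). The sterol factors split, with SREBF2 higher (17.3 ± 0.889 FPKM in BRQ and 12.9 ± 0.0788 FPKM in DMSO) and SREBF1 lower (25.3 ± 0.539 FPKM in BRQ and 32.5 ± 0.856 FPKM in DMSO). TCF12, an E-protein, had the smallest adjusted p of these genes, at 6.37 ± 0.457 FPKM in BRQ and 10.8 ± 0.345 FPKM in DMSO (limma adjusted p = 8.10e-06). The Notch target HES1 fell to 5.45 ± 0.69 FPKM in BRQ, against 10.1 ± 0.673 FPKM in DMSO (limma adjusted p = 1.77e-05). ID3, which blocks other factors of this kind, rose to 6.5 ± 0.945 FPKM in BRQ, against 2.64 ± 0.859 FPKM in DMSO (limma adjusted p = 1.76e-04).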
